A study of Mus musculus with 9 samples.

Results

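Immediate early response genes are the genes that a cell transcribes first after a stimulus such as a growth factor, stress or tissue handling, without needing new protein synthesis. MAP kinase signalling to the serum response factor SRF and to CREB switches them on, and several of their products, including the RNA-binding protein Zfp36 and the phosphatase Dusp1, shut the response down again. Fos and Jun proteins pair to form the AP-1 transcription factor, and Egr1 is a zinc finger transcription factor of the same wave. The group described here was chosen by name and not by a measured value, though with earlier results of these data known. It holds 10 genes, Fos, Jun, Junb, Jund, Egr1, Ier2, Ier3, Zfp36, Atf3 and Dusp1, and all 10 were found among the 54532 genes of the deposited count tables.

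The study concerns radiation damage to salivary glands and their regeneration. The 9 RNA-seq libraries come from the sublingual gland, a mucus-secreting gland under the tongue, of wild-type mice, and fall into 3 groups of 3. Control glands received no radiation, and the others were taken 7 or 14 days after a dose of 10 Gy. RNA came from 4 sections of 50 µm per gland. Strain, sex, age, the time of day of collection and the animal behind each library are not stated in the labels, so the p-values measure the spread between these libraries, which may be partly technical. The samples are bulk tissue, in which fewer cells of a type and less RNA per cell cannot be told apart.

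Total counts per library ran from 15962399 to 19441239. A count of 3 in a library, the limit that a count of 0 allows, stood for 0.159 to 0.202 CPM (read counts put on a common library scale by TMM) and covers counting error only. The tissue label was checked on 8 mucous acinar markers, which summed to between 233700 and 349800 CPM in every library. Control library 3 stood apart from the other controls over all genes, with a chi-square per degree of freedom of 92.9 and 132.9 against them and of 15.2 between those 2. All 10 members passed the filter on low counts that left 15348 genes for testing.

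Promoters are where the signals that induce these genes arrive, so the windows of 4 members are shown, 2 that fell at day 7 (Zfp36 and Ier3) and 2 that did not pass the test (Fos and Dusp1). RefSeq promoter entries on GRCm38.p6 were found for 8 of the 10 members, Egr1 and Ier2 having none, and each sequence below is the 250 bases before the start that RefSeq gives, 5′ to 3′ on the gene's strand. The RefSeq starts of Zfp36, Dusp1 and Ier3 lie inside the longer GENCODE M21 models used for exonic lengths, so their windows overlap those models. Capitals mark matches, on either strand, to the CArG box that SRF binds (searched by its usual degenerate form), the cyclic AMP response element TGACGTCA and its shorter form TGACG, the AP-1 site TGANTCA, the EGR site GCGNGGGCG, the GC box GGGCGG and the TATA box TATAAA.
Fos, chr12:85473640-85473889, plus strand: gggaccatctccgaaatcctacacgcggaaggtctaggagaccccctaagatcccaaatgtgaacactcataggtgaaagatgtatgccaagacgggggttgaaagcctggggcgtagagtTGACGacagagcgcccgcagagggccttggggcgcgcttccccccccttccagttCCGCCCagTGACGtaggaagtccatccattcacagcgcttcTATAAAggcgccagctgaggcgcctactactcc
Zfp36, chr7:28379229-28379478, minus strand: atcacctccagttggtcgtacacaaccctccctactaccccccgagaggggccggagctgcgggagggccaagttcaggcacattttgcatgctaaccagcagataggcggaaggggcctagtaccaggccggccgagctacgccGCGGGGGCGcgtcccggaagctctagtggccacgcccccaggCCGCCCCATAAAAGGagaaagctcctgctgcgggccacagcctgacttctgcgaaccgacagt
Dusp1, chr17:26508473-26508722, minus strand: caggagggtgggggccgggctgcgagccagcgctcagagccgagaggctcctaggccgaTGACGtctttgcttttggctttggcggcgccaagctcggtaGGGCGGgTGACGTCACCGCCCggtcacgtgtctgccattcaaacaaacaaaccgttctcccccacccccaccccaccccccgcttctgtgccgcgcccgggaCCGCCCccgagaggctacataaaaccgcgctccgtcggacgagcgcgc
Ier3, chr17:35821463-35821712, plus strand: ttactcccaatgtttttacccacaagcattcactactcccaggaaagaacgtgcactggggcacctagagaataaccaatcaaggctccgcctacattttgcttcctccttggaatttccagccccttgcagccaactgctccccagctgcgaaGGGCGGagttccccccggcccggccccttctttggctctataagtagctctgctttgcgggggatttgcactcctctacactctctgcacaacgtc

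The 4 windows differed in the matches they held. Zfp36 had a CArG box 58 to 49 bases before the start, sharing 1 base with a GC box at 63 to 58, and an EGR site at 105 to 97. Dusp1 had a full cyclic AMP response element at 143 to 136, with copies of TGACG inside it and at 191 to 187, and 3 GC boxes. Fos had TGACG at 129 to 125 and 66 to 62, a GC box at 74 to 69 and a TATA box at 33 to 28. The Ier3 window held a single GC box, at 96 to 91. Among 32851 promoters of the same length, 1.47% held a CArG box, 1.55% the full cyclic AMP response element, 17.8% the shorter TGACG, 6.75% an AP-1 site, 4.70% an EGR site, 32.7% a GC box and 12.4% a TATA box. A match describes letters in a window and does not show that a factor binds there. Bases outside the windows were not searched. A window without a match, as for the CArG box in Fos, does not show that the gene lacks the site.

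Levels differed widely among the members. Per kilobase of exon, and averaged over the 9 libraries, the level was 82.5 CPM for Jund, 21.65 for Ier2, 14.0 for Junb, 12.7 for Ier3, 10.5 for Jun, 9.69 for Zfp36, 4.785 for Dusp1, 3.91 for Atf3, 1.41 for Egr1 and 0.598 for Fos. Jund stood above every other member in each library, and Fos below. In between, from Ier2 to Egr1, the range over libraries of each member overlapped that of its neighbour in this order. Fos rested on 6 to 42 counts per library and Egr1 on 58 to 163, while Jund had 1567 to 3555. The spread between libraries of a group followed another order: the biological coefficient of variation was 41.8% for Atf3, 38.1% for Fos and 29.0% for Dusp1, but 10.5% for Zfp36 and 10.96% for Junb, beside a median of 14.6% over all genes tested.

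**Figure D1:**
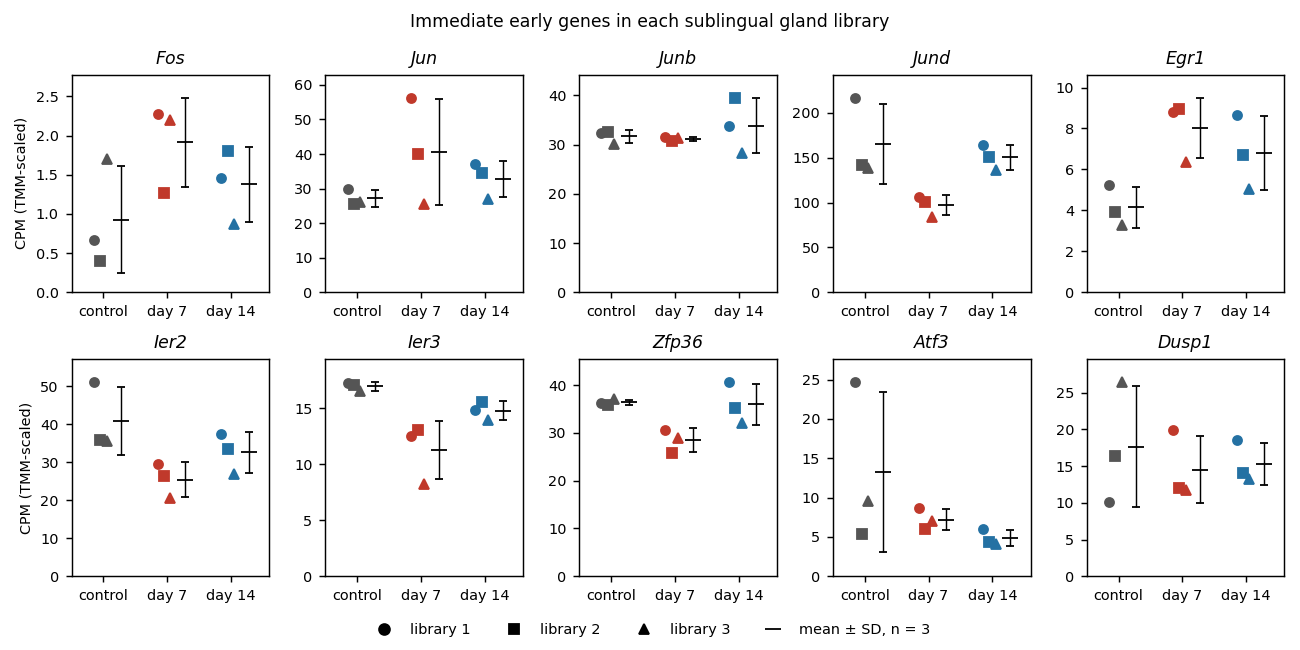
Level of each member in the 9 libraries (vertical axes, TMM-scaled CPM from 0), with the mean ± SD of each group of 3. Egr1 lies higher in all 3 day 7 libraries than in any control, and Jund, Ier2, Ier3 and Zfp36 lie lower, while the control libraries of Atf3, Fos and Dusp1 spread over more than the differences between groups.

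At 7 days after irradiation the 10 genes did not move as a unit. Egr1 rose to 8.03 ± 1.47 CPM from 4.15 ± 1.00 in controls (mean ± SD, n = 3), while Jund, Ier2, Ier3 and Zfp36 fell, and Fos, Jun, Junb, Atf3 and Dusp1 did not pass the test. That is 1 of 10 members higher, where 15.8% of all genes tested were called higher, and 4 of 10 lower, where 14.8% were. The median log2 change was −0.32 over the members and 0.02 over all genes tested. The same 5 members were those whose day 7 and control libraries did not overlap, 1 higher beside 22.2% of all genes and 4 lower beside 21.7%.

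Length and base composition of the genes moved with these changes. Over all genes the median day 7 log2 change ran from −0.37 in the shortest 10% of genes by exonic length to 0.38 in the longest 10%, and from 0.31 in the 10% of lowest GC content to −0.22 in the 10% of highest. The members are short and GC-rich, with median exonic lengths of 2326.5 bases against 4111 over all genes tested and GC contents of 55.0% against 49.7%. When each library was corrected for both properties, Egr1 remained called and none of the 4 falls did, with 9.17% of all genes then called higher and 11.4% lower. Corrected values stand beside the day 7 calls of the members below, and the cause of the trend was not tested.

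**Figure D2:**
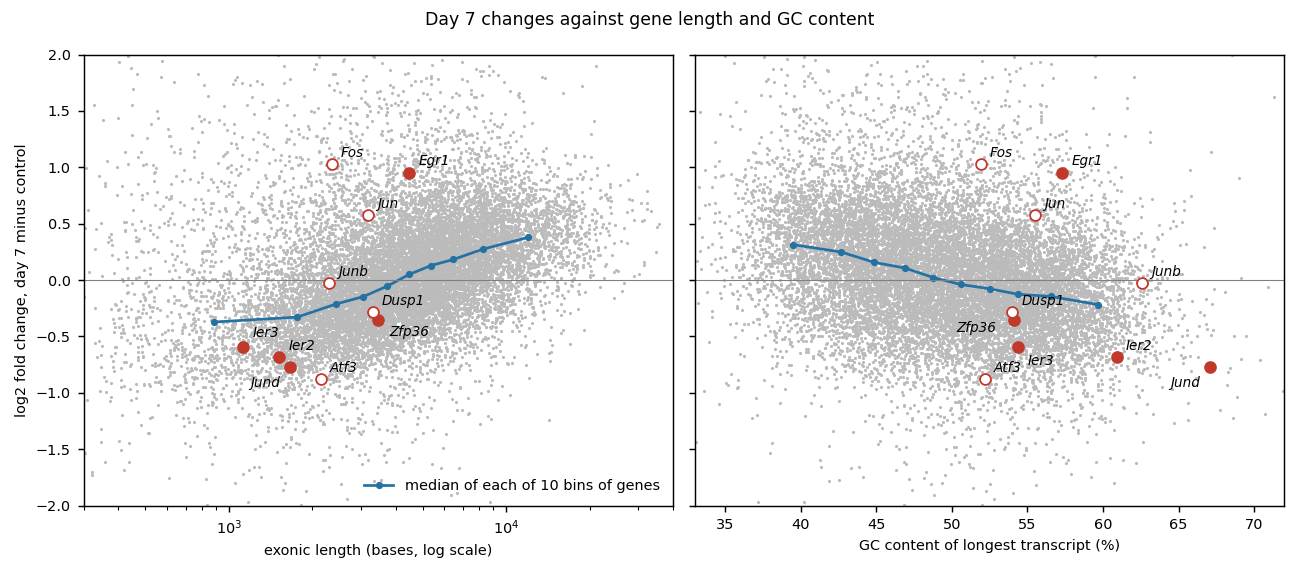
Log2 fold change at day 7 against control for all genes tested (grey) and for the members (red, filled where the adjusted p was under 0.05), against exonic length on a log axis and against GC content; the blue line joins the medians of 10 bins of about equal numbers of genes, and genes beyond the axis limits are not drawn. Ier3, Ier2 and Jund lie among the short genes, whose medians were below 0. Egr1, Fos, Jun and Junb lie above the line in both panels.

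Among the Jun family genes Jund fell at day 7, and Jun and Junb did not pass the test. Jund, the Jun family member that many tissues express without a stimulus, measured 217, 141 and 138 CPM in control libraries 1, 2 and 3, then 106, 101 and 84.2 at day 7 and 164, 151 and 136 at day 14. All day 7 libraries lay below all others. It fell by 0.77 on the log2 scale at day 7 (SE 0.157, adjusted p = 0.00282), a call that held with any one library left out. With the length and GC correction the change was −0.31 (adjusted p = 0.0772). The gene is a single exon of 1668 bases with 67.1% GC on chromosome 8 (70698949 to 70700616, GENCODE M21 on GRCm38).

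Junb, an AP-1 subunit induced by many stimuli, stayed within a narrow range. Its control libraries measured 32.4, 32.6 and 30.2 CPM, those of day 7 31.55, 30.7 and 31.3, and those of day 14 33.8, 39.5 and 28.3. The groups overlapped in every comparison. Its day 7 log2 change was −0.02 (SE 0.122, adjusted p = 0.908), and with the length and GC correction it was 0.31 (adjusted p = 0.0787), so that its direction depends on that correction. The Junb gene model overlaps exons of Prdx2 on the other strand, a gene of 181 CPM on average, and the sources used here do not say whether reads were counted by strand.

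Jun, the founding member of the family, measured 29.9, 25.6 and 26.0 CPM in controls and 56.3, 39.9 and 25.5 at day 7. Day 7 library 1 held the highest level of the 9 libraries and day 7 library 3 lay below all 3 controls, so the groups overlapped. The log2 change was 0.58 (SE 0.247, adjusted p = 0.107), without day 7 library 3 it was 0.82 (adjusted p = 0.0014), and without day 7 library 1 it was 0.27 (adjusted p = 0.317). At day 14 the libraries measured 37.0, 34.4 and 26.9 CPM, all above the 2 lower controls. Jun shares exonic bases with Junos on the other strand, which averaged 2.26 CPM.

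Fos, the partner of the Jun proteins in AP-1, was the least abundant member. Its control libraries measured 0.671, 0.405 and 1.70 CPM from 11, 6 and 30 counts, and those of day 7 measured 2.28, 1.26 and 2.20 CPM from 42, 23 and 41 counts. Control library 3 lay above day 7 library 2, so the groups overlapped. The log2 change at day 7 was 1.03 (SE 0.511, adjusted p = 0.135) with all libraries, 1.79 without control library 3 (adjusted p = 0.0193) and 0.68 without control library 2 (adjusted p = 0.374). The day 14 libraries lay between, at 1.46, 1.81 and 0.867 CPM.

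Atf3, a stress-induced factor of the ATF and CREB family that also pairs with Jun proteins, varied more among controls than between groups. Control libraries measured 24.7, 5.40 and 9.50 CPM, day 7 libraries 8.635, 5.99 and 6.99 and day 14 libraries 6.02, 4.41 and 4.12. Control library 1 was 4.58 times control library 2. The day 7 log2 change was −0.875 (SE 0.507, adjusted p = 0.239), but it was −0.06 without control library 1 (adjusted p = 0.911) and −1.26 without control library 2 (adjusted p = 0.0174). At day 14 it was −1.45 (SE 0.522, adjusted p = 0.171), and −0.64 without control library 1 (adjusted p = 0.305).

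Egr1, which acts on promoters through GC-rich sites, gave the increase at day 7. Control libraries measured 5.245, 3.91 and 3.28 CPM, and day 7 libraries 8.80, 8.955 and 6.34. Each day 7 library lay above each control. The log2 change was 0.95 (SE 0.250, adjusted p = 0.00728) and 1.02 with the length and GC correction (adjusted p = 0.00424), and it passed the threshold with any one library left out, at 0.785 to 1.16. Day 14 libraries measured 8.65, 6.69 and 5.04 CPM, and the last of these lay below control library 1. The day 14 log2 change against control was 0.71 (SE 0.251, adjusted p = 0.113), and from day 7 to day 14 it was −0.24 (SE 0.241, adjusted p = 0.614).

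The Ier genes took the opposite direction to Egr1. Ier2, a nuclear protein linked to transcriptional regulation, measured 51.1, 35.8 and 35.6 CPM in controls and 29.5, 26.3 and 20.5 at day 7, with no overlap. It fell by 0.68 on the log2 scale (SE 0.168, adjusted p = 0.00603), a call that held with any one library left out. The corrected change was −0.235 (adjusted p = 0.290). At day 14 it measured 37.5, 33.4 and 26.8 CPM, overlapping both other groups.

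Ier3, a regulator of cell survival under stress, had nearly equal controls of 17.3, 17.1 and 16.5 CPM and day 7 libraries of 12.5, 13.1 and 8.28. It fell by 0.59 on the log2 scale (SE 0.166, adjusted p = 0.0115), by 0.41 without day 7 library 3 (adjusted p = 0.0672), and its corrected change was −0.16 (adjusted p = 0.538). The day 14 libraries, at 14.9, 15.6 and 13.9 CPM, lay between the other groups without overlapping either. It is the shortest member, with 1131 exonic bases on chromosome 17 (35821684 to 35822923, GENCODE M21 on GRCm38).

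Of the 2 feedback genes, Zfp36 fell at day 7 and Dusp1 did not pass the test. Zfp36, or tristetraprolin, promotes decay of messenger RNAs with AU-rich elements, those of many immediate early and cytokine genes among them. Control libraries measured 36.2, 35.9 and 37.05 CPM, day 7 libraries 30.7, 25.8 and 29.0 and day 14 libraries 40.7, 35.2 and 32.1. It fell by 0.35 at day 7 (SE 0.117, adjusted p = 0.0278). This was the call nearest to the threshold, lost without control library 1 (adjusted p = 0.0538), control library 2 (0.0529), day 7 library 2 (0.134) or day 7 library 3 (0.0587), and the corrected change was −0.20 (adjusted p = 0.218).

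Dusp1, a phosphatase that inactivates MAP kinases, measured 10.1, 16.4 and 26.5 CPM in controls, 19.9, 11.98 and 11.8 at day 7 and 18.6, 14.1 and 13.3 at day 14. The control range enclosed all 6 irradiated libraries. The day 7 log2 change was −0.28 (SE 0.347, adjusted p = 0.585), and without control library 3 it was 0.12 (adjusted p = 0.767). The annotated Dusp1 model overlaps exons of Ergic1, which averaged 511 CPM, on the other strand, so its level is uncertain without strand.

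**Figure D3:**
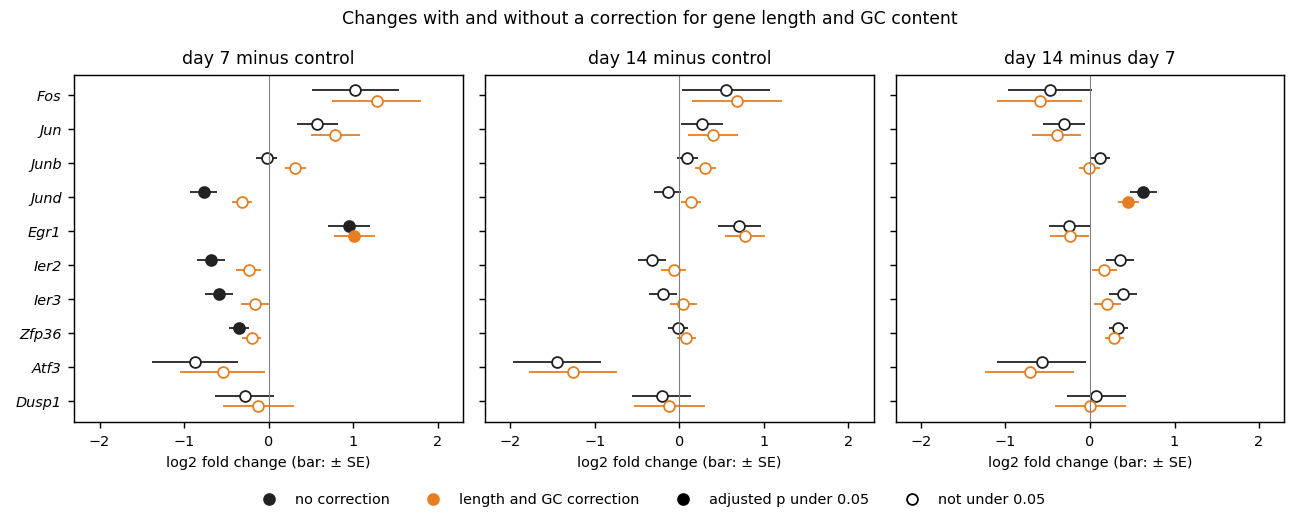
Log2 fold change ± SE of each member in the 3 comparisons (horizontal axes), as counted (black) and after the length and GC correction (orange), filled where the adjusted p was under 0.05. At day 7 the correction moves Jund, Ier2 and Ier3 by 0.428 to 0.455 toward higher values and Egr1 by 0.06, and Jund is filled in both colours from day 7 to day 14.

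At 14 days after irradiation none of the members differed from control past the threshold. The background was low here as well, with 1.13% of all genes tested called higher and 0.632% lower by edgeR. At an unadjusted p under 0.05, edgeR counted 2 members, Egr1 and Atf3, and DESeq2, which also called none, counted 3. The share of all genes at that unadjusted level was not counted, so these counts have no background to be read against. In this comparison Ier3 had groups that did not overlap, being 1 member lower beside 10.7% of all genes, with none higher beside 12.4%. The median log2 change of the members was −0.08, beside 0.01 over all genes tested, and with the length and GC correction it was 0.11, beside −0.002. For Zfp36 and Jund the day 14 means of 36.0 ± 4.32 and 150 ± 14.1 CPM stood beside control means of 36.4 ± 0.608 and 165.5 ± 44.5 CPM (mean ± SD, n = 3). The log2 changes were −0.015 (SE 0.116) and −0.14 (SE 0.156), and both turned positive with the length and GC correction, at 0.085 and 0.14.

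From day 7 to day 14, Jund rose. Its log2 change was 0.63 (SE 0.157, adjusted p = 0.0326) and, with the length and GC correction, 0.455 (adjusted p = 0.0358). It was the 1 member called higher, beside 3.72% of all genes tested, and none was called lower, beside 2.87%. With the length and GC correction the counts were also 1 and 0, beside 3.34% and 2.77%. The call was lost when any one of the 6 libraries compared was left out, with adjusted p-values of up to 0.136 and changes of 0.54 to 0.70. Ier3 and Zfp36 also had day 14 libraries all above those of day 7, which makes 3 members without overlap in that direction beside 15.9% of all genes, with none in the other beside 13.5%. Their changes were 0.39 (SE 0.166, adjusted p = 0.160) and 0.34 (SE 0.116, adjusted p = 0.0862).

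The libraries of a group that held the highest and lowest values were counted over the members. Day 14 library 3 held the lowest value of its group for all 10 members, where 32.2% of all genes tested were lowest there. At day 7, library 1 was highest for 8 members and library 3 lowest for 6, beside 32.6% and 32.0% of all genes. Control library 1 was highest for 6 members, among them Atf3, Jund, Ier2, Egr1 and Jun, beside 32.9% of all genes, but lowest for Dusp1. The other controls were mixed, library 3 being highest for 3 members and lowest for 5, and library 2 highest for 1 and lowest for 4. These are counts over the members, with no test.

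**Figure D4:**
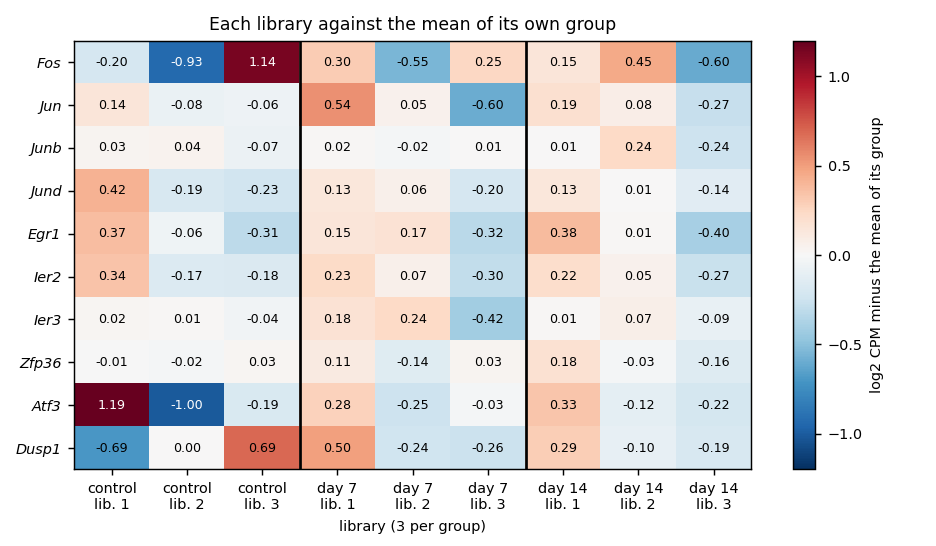
Log2 CPM of each member (rows) in each library (columns) minus the mean of its own group, red above and blue below. The column of day 14 library 3 is below 0 in all 10 rows, from −0.60 for Fos to −0.09 for Ier3, and the control columns hold the widest deviations, reaching 1.19 for Atf3 and 1.14 for Fos.

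Genes whose profile over the 9 libraries was nearest to 3 of the members were found by the root mean square difference of centred log2 CPM, among genes of at least 5 CPM on average. Nearest to Jund were Gar1 (0.11), Cdk2ap2 (0.12), Cst3 (0.12), Ftl1 (0.12) and Gstt1 (0.13), where Jund itself varied by 0.38. Nearest to Egr1 were Fads2 (0.17), Ampd3 (0.20), Col1a1 (0.21), Fam110c (0.22) and Col5a1 (0.22), beside 0.45 for Egr1 itself. Col1a1 measured 44.3, 68.2 and 56.8 CPM on average at control, day 7 and day 14. Nearest to Fos were Zfp51 (0.18), Tbc1d12 (0.21), Robo1 (0.21), Npat (0.22) and Prlr (0.23), beside 0.53 for Fos.

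Counts of the wider lists at day 7 stand beside the same 15.8% of all genes called higher and 14.8% called lower. Of 12 other AP-1 genes 10 were tested, and 2 fell at day 7 while none rose. Mafk, a small Maf protein, fell by 0.48 on the log2 scale (adjusted p = 0.00471; corrected −0.365, adjusted p = 0.0217), from 73.8 ± 5.85 to 52.9 ± 5.64 CPM. Batf fell by 0.84 (adjusted p = 0.0146; corrected −0.40, adjusted p = 0.228), and the call was lost without control library 1 or day 7 library 1. None was called at day 14 against control, and Jdp2, which pairs with Jun proteins as a repressor, fell by 0.88 from day 7 to day 14 (adjusted p = 0.0162; corrected −1.03, adjusted p = 0.00554). That call was lost without day 7 library 1, day 14 library 2 or day 14 library 3. With the correction Jdp2 was also called higher at day 7 (0.57, adjusted p = 0.0476), where it had not passed uncorrected (0.23, adjusted p = 0.413). Fosb did not pass the filter, with at most 14 counts in a library.

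Of 22 other immediate early transcription factors, 19 were tested. At day 7 Bhlhe40 and Klf6 rose and Nfil3 fell. Bhlhe40, a repressor that also acts in the circadian clock, went from 66.1 ± 12.8 to 132 ± 16.7 CPM (log2 change 1.00, adjusted p = 0.000164; corrected 0.95, adjusted p = 0.000726). Klf6 went from 28.7 ± 5.34 to 41.7 ± 5.44 CPM (0.54, adjusted p = 0.00889; corrected 0.40, adjusted p = 0.0358), and omitting control library 1 or day 7 library 1 ended the call. Nfil3, a repressor under clock control, fell from 34.9 ± 12.6 to 6.30 ± 2.13 CPM (−2.47, adjusted p = 0.000228; corrected −2.098, adjusted p = 0.00126). The closest relatives of Egr1 did not pass the filter, with at most 17 counts for Egr2, 8 for Egr3 and 0 for Egr4. From day 7 to day 14, Ier5 (0.78, adjusted p = 0.0116; corrected 0.74, adjusted p = 0.00775) and Nfil3 (1.52, adjusted p = 0.0166; corrected 1.36, adjusted p = 0.0327) rose. Bhlhe40 fell by 0.51 (adjusted p = 0.0441), a call lost with the correction (−0.48, adjusted p = 0.0705). Of 9 fits that each left out a library, 7 called Ier5, 5 called Nfil3 and 4 called Bhlhe40. The Ier5 call was lost without day 7 library 1 or day 14 library 2, that of Nfil3 without day 7 library 2 or 3 or day 14 library 1 or 2, and that of Bhlhe40 without control library 2, day 7 library 1 or 2 or day 14 library 1 or 3.

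Of 24 immediate early effectors 19 were tested, and at day 7 1 rose and 3 fell. The kinase Plk2 rose (0.57, adjusted p = 0.00851; corrected 0.51, adjusted p = 0.0165). Gadd45g, Plaur and Pim1 fell by 1.205, 0.56 and 0.54 (adjusted p = 0.00188, 0.00678 and 0.0234), and none of the 3 passed with the length and GC correction (adjusted p = 0.0851, 0.120 and 0.146). The call of Plaur was also lost without control library 1, and that of Pim1 when control library 2, control library 3, day 7 library 1 or day 7 library 3 was omitted. Of 25 feedback inhibitors 24 were tested, of which 4 rose and 1 fell. The close relatives of Zfp36 moved against it: Zfp36l1 rose by 0.85 (adjusted p = 3.59e-05; corrected 0.99) from 36.1 ± 3.82 to 65.1 ± 4.38 CPM, and Zfp36l2 rose by 0.52 (adjusted p = 0.0035; corrected 0.66). Nfkbiz, a regulator of NF-kappa-B, and Nab1, a co-repressor of Egr1, rose by 0.685 and 0.40 (adjusted p = 0.00387 and 0.0176). Their corrected changes were 0.625 and 0.37 (adjusted p = 0.00662 and 0.0159). The call of Nab1 was lost without control library 1 or day 7 library 2. Nab2, picked out once its value was known, fell by 0.44 (adjusted p = 0.0392; corrected −0.18, adjusted p = 0.392), and its call was lost without control library 1 or any one day 7 library. From day 7 to day 14, 1 of the 24 rose and 1 fell, beside 3.72% and 2.87% of all genes. Zfp36l1 fell by 0.63 (adjusted p = 0.00194, corrected −0.70 with adjusted p = 0.000243), a call that held with any one library left out. Dusp6 rose by 0.44 (adjusted p = 0.03, corrected 0.38 with adjusted p = 0.0331). That call was lost without day 7 library 1 or 2 or day 14 library 2 or 3.

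Upstream, all 35 listed MAP kinase, SRF and CREB genes were tested, and 6 rose and 3 fell at day 7. Erbb3, a receptor for neuregulins, and Mrtfb, a coactivator of SRF, rose by 0.53 and 0.795 (adjusted p = 0.000954 and 0.0012; corrected 0.42 and 0.53). Hras and Map2k2 fell by 0.67 and 0.52 (adjusted p = 0.000106 and 0.00089; corrected −0.54 for each). Mapkapk2, picked out once its value was known, fell by 0.27 (adjusted p = 0.0202; corrected −0.045, adjusted p = 0.776), and its call was lost without day 7 library 2. The count of 6 was 3 without control library 1 and 9 without control library 3. At day 14 Hras was called lower than control (−0.42, adjusted p = 0.0387; corrected −0.33, adjusted p = 0.0743). That call was lost without control library 1 or 2, day 7 library 2 or any one day 14 library, and held in 3 of 9 fits.

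Circadian clock genes changed at the same time point. Of 10 tested, 6 were called higher and 2 lower at day 7, beside 15.8% and 14.8% of all genes. From day 7 to day 14, 2 were called higher and 6 lower, beside 3.72% and 2.87%. Nfil3 and Per1 are in this list and also in the immediate early lists above. Arntl fell from 12.4 ± 0.767 to 1.05 ± 0.208 CPM at day 7 and measured 9.29 ± 1.06 CPM at day 14, while Dbp rose from 73.9 ± 2.41 to 227 ± 42.0 CPM and measured 78.1 ± 12.7 CPM at day 14. Of 8 heat shock genes tested, 3 fell at day 7 and 5 were not called. Hspa8 fell from 852 ± 70.9 to 548 ± 24.7 CPM and Hspe1 from 59.5 ± 5.79 to 34.3 ± 1.04 CPM. Hspb1 fell by 0.40 on the log2 scale (adjusted p = 0.0302), but its groups overlapped and its corrected change was 0.075 (adjusted p = 0.803). The median log2 change of the 8 was −0.31, and −0.018 with the length and GC correction. The day 7 calls of Arntl, Dbp, Hspa8 and Hspe1 held with the length and GC correction, with log2 changes of −3.79, 1.86, −0.71 and −0.52. Hsph1, not called without the correction (−0.34, adjusted p = 0.0842), was called with it (−0.59, adjusted p = 0.00355). With the correction 3 of the 8 heat shock genes were thus called lower, beside 11.4% of all genes. The part of the clock phase and of the heat shock genes in the changes of Egr1, Jund, Ier2, Ier3 and Zfp36 was not tested.

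Markers of cell types also moved with the groups. The 8 mucous acinar markers summed to between 251800 and 349800 CPM in controls, 233700 and 250400 at day 7 and 256300 and 281200 at day 14. At day 7, 7 of them were called lower and 1 higher, beside 14.8% and 15.8% of all genes. With the length and GC correction 6 were lower and 0 higher, beside 11.4% and 9.17%. Summed over 7 genes, macrophage markers ran from 136 to 159 CPM in controls, from 82.7 to 118 at day 7 and from 175 to 218 at day 14. At day 7, 3 of these 7 were called lower and 0 higher. With the length and GC correction 0 were called in either direction. The 5 fibroblast markers summed to between 279 and 297 CPM in controls, 320.5 and 384 at day 7 and 315 and 387 at day 14, and the 6 endothelial markers to between 334 and 377, 416 and 500, and 393 and 439. At day 7, 2 fibroblast and 2 endothelial markers were called higher and 0 lower. With the length and GC correction 2 fibroblast markers were higher and 1 lower, and 1 endothelial marker was higher and 0 lower. Markers of the granular ducts of the neighbouring submandibular gland summed to 27.4 to 93.9 CPM in controls and to 17.0 to 33.5 after irradiation, where Ren1 had no count. The 5 neutrophil markers stayed at or below 2.06 CPM in sum, and S100a8, S100a9, Ly6g and Cxcr2 had no count in any day 7 library. Which cells the members were expressed in, and the part of these shifts in their levels, was not tested.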

How the data were processed

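Counts per gene of 9 mouse sublingual gland libraries were deposited by the authors as whole numbers without normalisation. The submitters' processing notes name mm10, STAR, featureCounts and DESeq2. Their versions, annotation and strand setting are not stated in what was used here. Identifiers were looked up in GENCODE M21, and promoter sequences came from RefSeq (GRCm38.p6). The members and gene lists were chosen with earlier results of these data known.

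Counts were tested with edgeR 4.0.16 in R 4.3.3: filterByExpr (39184 of 54532 genes removed), TMM scaling, a design of 3 groups and the robust two-sided quasi-likelihood F test with 6 residual degrees of freedom. P-values were adjusted over all genes tested by the Benjamini-Hochberg method (threshold 0.05), and adjusted p-values come from this test unless another is named. The biological coefficient of variation was 16.1%. The test was also run on counts simulated from the control means and the fitted spread. Such a run does not show that the calls hold in these data. SE is the standard error of the log2 fold change, and CPM are TMM-scaled. Profiles used log2 of CPM plus 0.5. Besides all members, up to 4 genes of smallest p per list are named.

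Alternatives were other scalings, filters and thresholds, DESeq2 1.42.0, limma-voom (limma 3.58.1), the 6 libraries compared, a replicate block, leaving out each library, and offsets for length and GC (loess span 0.3, with values for 99.9% of genes tested). Correcting for length or GC alone was added after seeing the data. No libraries were as alike as sampling noise allows (chi-square per degree of freedom 9.68 to 132.9).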

Additional observations from a re-analysis of the deposited data

Results flagged for a closer look

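The effect of irradiation on Jund passed the test of a difference between day 7 and day 14, but not with every library left out in turn. Against the same controls it was −0.77 on the log2 scale at day 7 and −0.14 at day 14, and the test of the difference, which is the direct comparison of the 2 time points, gave 0.63 (SE 0.157, adjusted p = 0.0326). All 3 day 14 libraries were higher than all 3 day 7 libraries. The call was lost without any one of the 6 libraries compared, with adjusted p-values up to 0.136. It was also lost with a correction for length alone (0.464, adjusted p = 0.105) and held with GC alone (0.526, adjusted p = 0.0186). With the length and GC correction the 2 effects were −0.31 and 0.14 and their difference 0.455 (adjusted p = 0.0358).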

How the results depend on the processing

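Members called higher at day 7 numbered 1 as reported, and 2 with no filter on low counts, with DESeq2 (Jun and Egr1 in both) and with limma-voom (Fos and Egr1), and 1 to 2 with a library left out. Members called lower at day 7 numbered 4 as reported, 0 with the length and GC correction and 0 with length alone. With GC alone Jund, Ier2 and Ier3 stayed called (adjusted p = 0.0132, 0.0222 and 0.0297) and Zfp36 did not (0.107). The count was 2 at an adjusted p under 0.01 (Jund and Ier2), and 2 to 4 with a library left out. From day 7 to day 14 the count of 1 higher became 2 with limma-voom (Jund and Zfp36) and 0 with length alone. GC alone left Jund called (adjusted p = 0.0186). The count was 0 at an adjusted p under 0.01 and 0 to 1 with a library left out. Replicate numbers did not pair the libraries (correlation of same-numbered deviations −0.11 to 0.04). The replicate block called 2 members higher at day 7 (Jun and Egr1), also with the length and GC correction, where 1 was lower (Jund).

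Signs turned for changes that were not called. The log2 change of Junb at day 7 was 0.31 with the length and GC correction, 0.32 with the block added, 0.20 with length alone and 0.20 with GC alone. At day 14 against control, in the same order, Jund gave 0.141, 0.154, 0.013 and 0.071, and Zfp36 gave 0.085, 0.081, 0.016 and 0.057, with 0.007 by limma-voom. Ier3 gave 0.045 and 0.037 in the first 2. From day 7 to day 14 Junb gave −0.009, −0.021 and −0.003 in the first 3. With a library left out the ranges crossed 0 for Dusp1 (−0.58 to 0.12, −0.50 to 0.18 and −0.085 to 0.37 in the 3 comparisons), Junb (−0.055 to 0.21 at day 14 and −0.018 to 0.234 from day 7 to day 14), Jund (−0.288 to 0.088) and Zfp36 (−0.111 to 0.061) at day 14, and Jun from day 7 to day 14 (−0.55 to 0.002). The cause was not tested.

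Over all genes, the count called at day 14 against control was 270 as reported, 1300 with no filter, 989 with DESeq2, 1678 with limma-voom, 157 with 6 libraries, 113 with the block, 134 with the length and GC correction, 86 with both, 151 with length alone, and 13 to 1937 with a library left out. At day 7 against control it was 4692 as reported, 3158 with the length and GC correction, 2953 with the block added, 5985 with limma-voom and 3106 to 5314 with a library left out. From day 7 to day 14 it was 1011 as reported, 1874 with limma-voom and 330 to 1415 with a library left out. DESeq2 gave no adjusted p for Fos at day 14 against control. Depth limits Fos most, at 6 counts in one control.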
